A study of Mus musculus with 4 samples.

Results

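Genes of death receptor signalling and of its inhibitors were examined by RNA-seq in 4 cell lines from a mouse mammary tumor, each sequenced as 1 library. The 10 genes were taken by name from the 21090 genes of the table: the inhibitor of apoptosis (IAP) genes Xiap, Birc2 and Birc3, the caspase-8 inhibitor Cflar, the adaptors Traf1, Traf2, Fadd and Ripk1, the protease gene Casp8 and the receptor gene Tnfrsf1a. All 10 were found and all 10 had a mean of at least 1 RPKM (reads per kilobase of gene, scaled by library size), the minimum for testing. All lines go back to a primary tumor that had spread to the lung. The mouse carried the alleles Pik3ca H1047R and Trp53 R270H, and MMTV-Cre, a Cre recombinase that acts where the mouse mammary tumor virus promoter is active. The controls (n = 2) were the unedited parental cells and cells labelled as a vector control (vector cells below). The knockouts (n = 2) had been given lentiviral Cas9 with a guide RNA to S100a4, a gene for a calcium-binding protein, which cut in exon 3 in one (exon 3 line) and in exon 2 in the other (exon 2 line). Infected cells were selected on puromycin, and whether vector cells went through the same selection is not stated. Whether a line is 1 clone is not stated either. The label of the exon 2 line reads 308 and those of the other 3 libraries read 307, although a single starting line was described. Nothing in the labels says that libraries came from separate cultures of a line, so any p-value measures the spread between these libraries.

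Tumor necrosis factor binds its receptor TNFR1, the product of Tnfrsf1a, which gathers the kinase RIPK1, the adaptor TRAF2 and the ubiquitin ligases cIAP1 and cIAP2, the products of Birc2 and Birc3. Ubiquitin chains made there feed the NF-κB survival pathway, while loss of these chains lets RIPK1, the adaptor FADD and caspase-8 assemble into a complex that kills the cell. c-FLIP, the product of Cflar, joins FADD in place of caspase-8 and limits its activation, and XIAP binds and blocks the executioner caspases downstream. Several of these inhibitor genes are known targets of NF-κB.

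By mean RPKM the members lay between percentiles 22.9 and 81.7 of the tested genes. Total reads behind the RPKM values ranged from 22472024 in the exon 2 line to 31235456 in parental cells. S100a4 itself was at 3576 RPKM in parental cells, 4741 in vector cells, 1136 in the exon 3 line and 1105 in the exon 2 line, so its transcripts were lower in both knockouts and still present. Of 6 epithelial markers, Krt8 and Krt18 were expressed, while Epcam, Cdh1, Krt5 and Krt14 stayed below 1 RPKM in every library, so the epithelial side of the mammary label rests on a pair of keratins. Vim, a mesenchymal intermediate filament gene, was between 1362 and 2418 RPKM. The summed RPKM of the epithelial list was 129.8, 34.29, 107.1 and 74.75 and that of the 6 mesenchymal genes 3913, 2357, 1912 and 2172, in parental cells, vector cells, the exon 3 line and the exon 2 line. These sums hide how far the controls differed in single markers. Col1a1 was at 670 RPKM in parental cells and 6.93 in vector cells, against 54.3 and 24.2 in the exon 3 and exon 2 lines. Krt18 was at 60.2, 6.10, 27.3 and 19.05 and Fn1 at 606, 164, 414 and 340, in the order above. Vim (2418 and 2060) and Pdgfrb (76.1 and 56.8) differed less between the controls. Of 6 immune markers, Cd3e was at 0 in all libraries and Ptprc at no more than 0.0101 RPKM, and only Cd68, a lysosomal protein gene made in macrophages and at lower levels elsewhere, passed 1 RPKM. Cd68 was at 4.92 and 3.36 RPKM in parental and vector cells and at 11.5 and 13.2 in the exon 3 and exon 2 lines, and the part of such cells in the results below was not tested. The sum of the 4 endothelial markers was at most 0.443 RPKM.

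Values below are RPKM with a 95% exact Poisson interval where one is given, which covers counting error only. A log2 change is the mean log2(RPKM + 1) of the knockouts minus that of the controls, with its moderated standard error (SE) and Benjamini-Hochberg adjusted p from limma over 10871 tested genes. An exact permutation test of 2 libraries against 2 cannot give a two-sided p below 0.333.

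Cflar, Xiap, Birc3 and Birc2, the 4 inhibitor genes among the members, had lower RPKM in both knockouts than in both controls, as did 31.2% of all tested genes. Cflar, Xiap and Birc3 were at least 2-fold lower in all 4 pairings of a knockout with a control, as were 3.29% of tested genes. After the correction for base composition given below, 0 members were, against 1.57% of the genes corrected. On the log2 scale that correction moved Xiap from -1.39 to -0.71 and Birc2 to 0.05. Casp8 and Ripk1 were lower by less, and went to -0.18 and -0.10 after the correction. Traf1 was lower by more in the exon 2 line than in the exon 3 line. The receptor gene Tnfrsf1a and its adaptor gene Traf2 were higher in both knockouts, as were 21.9% of all tested genes. None of these changes passed an adjusted p of 0.05, a threshold that 2 genes (0.0184% of those tested) passed. In libraries of whole cultures, fewer cells that express a gene and less RNA per cell cannot be told apart.

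**Figure D1:**
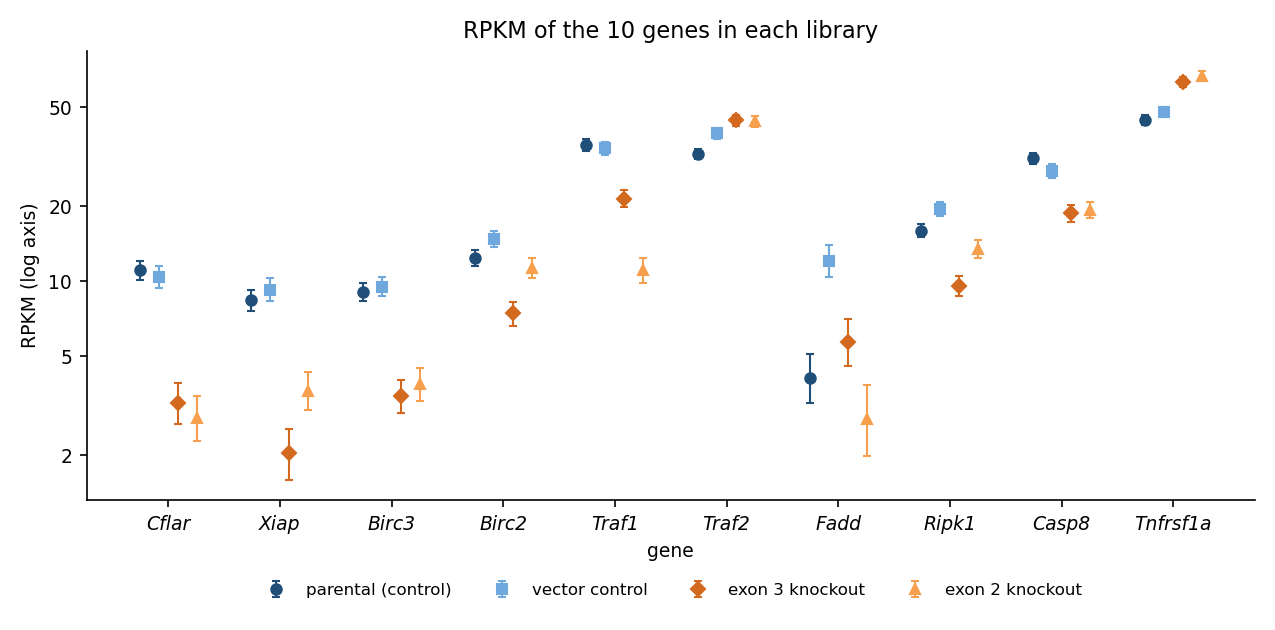
RPKM (log axis) of the 10 genes in each of the 4 libraries, with points for single libraries and bars for the 95% exact Poisson interval of counting error. Cflar, Xiap and Birc3 sit between 8.39 and 11.1 in the controls and between 2.04 and 3.87 in the knockouts, while Tnfrsf1a is at 44.4 and 47.9 in the controls and 63.3 and 66.8 in the knockouts.

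Stretches upstream of the start site are shown for the 4 genes with an unadjusted p under 0.05 in limma, Cflar, Xiap, Birc3 and Traf1, and for Tnfrsf1a and Traf2, which were higher. Each is the 200 bases before the RefSeq start site (GRCm38.p6), written 5′ to 3′ on the strand of the gene. Capitals mark matches to any of 5 motifs searched on both strands: the NF-κB consensus, the GC box GGGCGG, the CCAAT box CCAAT, the TATA box TATAAA and the AP-1 site TGANTCA. No searched motif overlaps another in these stretches, and the capitals in Cflar are TATA box matches on both strands that overlap each other. The stretch of Xiap belongs to 1 of its 3 start sites.

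Cflar (chr1:58711291-58711490, plus strand): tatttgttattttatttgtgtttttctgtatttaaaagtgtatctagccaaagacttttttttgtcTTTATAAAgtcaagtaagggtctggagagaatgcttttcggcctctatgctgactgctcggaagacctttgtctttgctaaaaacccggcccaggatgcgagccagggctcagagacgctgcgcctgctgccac

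Birc3 (chr9:7873171-7873370, minus strand): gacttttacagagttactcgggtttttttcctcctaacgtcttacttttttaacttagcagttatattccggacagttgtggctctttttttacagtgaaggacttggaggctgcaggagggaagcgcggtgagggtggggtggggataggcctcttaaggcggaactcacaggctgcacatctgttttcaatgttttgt

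Xiap (chrX:42068198-42068397, plus strand): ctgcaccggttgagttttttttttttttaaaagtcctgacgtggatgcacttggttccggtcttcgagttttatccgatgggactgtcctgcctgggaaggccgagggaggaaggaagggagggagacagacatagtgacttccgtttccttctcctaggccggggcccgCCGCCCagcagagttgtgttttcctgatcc

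Traf1 (chr2:34961773-34961972, minus strand): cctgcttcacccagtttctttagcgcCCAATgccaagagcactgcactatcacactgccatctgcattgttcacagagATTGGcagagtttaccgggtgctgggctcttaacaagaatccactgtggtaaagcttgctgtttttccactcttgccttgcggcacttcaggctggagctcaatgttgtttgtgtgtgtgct

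Traf2 (chr2:25546941-25547140, minus strand): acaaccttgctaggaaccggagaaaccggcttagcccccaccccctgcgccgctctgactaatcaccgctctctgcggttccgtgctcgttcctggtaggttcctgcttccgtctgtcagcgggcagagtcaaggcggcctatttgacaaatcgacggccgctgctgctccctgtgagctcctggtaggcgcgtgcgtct

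Tnfrsf1a (chr6:125349523-125349722, plus strand): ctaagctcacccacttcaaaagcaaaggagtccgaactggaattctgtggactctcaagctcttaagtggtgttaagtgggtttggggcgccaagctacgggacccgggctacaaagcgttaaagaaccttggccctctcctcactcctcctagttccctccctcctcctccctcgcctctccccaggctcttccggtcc

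The windows held in RefSeq run from 250 bases before to 50 after a start site, and 14 such windows belong to the 10 genes, with 3 for Xiap and 2 each for Birc2 and Ripk1. The NF-κB consensus was found in 0 of the 14 windows, against 4.51% of all 32851 windows. That says only that its letters are not in these windows. The GC box was found in windows of 5 genes (Xiap, Birc2, Traf2, Fadd and Ripk1) and in 35.7% of all windows, and the CCAAT box in windows of 3 (Birc2, Traf1 and Casp8) and in 37.4%. The TATA box was found for Cflar and for 1 window of Xiap, against 13.6% of all windows, and the AP-1 site for 0 genes against 7.81%. Genes were counted if any of their windows held a motif, so counts of genes and shares of windows are not in the same unit. The share of G and C was 45.0% in the Cflar window, 43.0% in that of Birc3, 48.7% in that of Traf1 and 42.0% in that of Casp8, against 64.0% for Traf2 and 57.0% for Tnfrsf1a. The median over all windows was 52.7%.

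Cflar, which encodes the caspase-8 decoy c-FLIP, had the most negative log2 change of the 10 genes. The gene is at chromosome 1, 58711508 to 58758884, on the plus strand (GRCm38). Its RPKM was 11.1 in parental cells (10.1 to 12.1, 513 reads) and 10.4 in vector cells (9.41 to 11.5, 392 reads). It was 3.25 in the exon 3 line (2.68 to 3.91, 113 reads) and 2.82 in the exon 2 line (2.28 to 3.45, 94 reads). The groups did not overlap, and the intervals of the knockouts stayed clear of those of the controls. The controls were close together, and so were the knockouts, so that the knockout mean was 28.2% of the control mean (3.04 ± 0.301 against 10.7 ± 0.472, SD, n = 2 each). The 4 pairs ranged from 3.21-fold to 3.93-fold lower. The log2 change was -1.54 (SE 0.333) and its limma adjusted p 0.0979. That p was 0.0317 without parental cells, 0.0336 without vector cells and 0.0216 with a robust prior, and it was 0.369 without the exon 3 line.

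Xiap encodes the IAP that binds and blocks caspases directly. It is at chromosome X, 42059679 to 42109656, on the plus strand. Its RPKM was 8.39 in parental cells (7.59 to 9.25, 400 reads), 9.26 in vector cells (8.32 to 10.3, 359 reads), 2.04 in the exon 3 line (1.60 to 2.56, 73 reads) and 3.64 in the exon 2 line (3.03 to 4.34, 125 reads). Both knockouts were below both controls, and they also differed from each other, the exon 2 line being 1.79-fold above the exon 3 line with intervals that did not touch. The pairs were 4.12-fold and 4.55-fold lower for exon 3 and 2.30-fold and 2.54-fold lower for exon 2. The log2 change was -1.39 (SE 0.360, limma adjusted p 0.120). The adjusted p was 0.0407 without parental cells and 0.0442 with a robust prior, and 0.572 without the exon 3 line.

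Birc3, the gene of cIAP2, is at chromosome 9, 7848699 to 7873186, on the minus strand. Its RPKM was 9.09 in parental cells, 9.53 in vector cells, 3.46 in the exon 3 line and 3.87 in the exon 2 line, on 581, 495, 166 and 178 reads. The spread within each group was small (9.31 ± 0.308 in the controls and 3.66 ± 0.294 in the knockouts, SD, n = 2 each) and the pairs were 2.35-fold to 2.76-fold lower. The log2 change was -1.15 (SE 0.332, limma adjusted p 0.138).

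Birc2, the gene of cIAP1, is the neighbour and paralog of Birc3, on the same strand from 7818227 to 7837064. Its RPKM was 12.4 in parental cells, 14.8 in vector cells, 7.44 in the exon 3 line and 11.3 in the exon 2 line. The groups did not overlap, but the gap between parental cells and the exon 2 line was small (1.10-fold), and the interval of the exon 2 line (10.3 to 12.4) reached that of parental cells (11.5 to 13.4). This gave a log2 change of -0.51 (SE 0.338, limma adjusted p 0.417). The longest run of bases shared by the coding sequences of Birc2 and Birc3 is 114, so reads within it cannot be told apart, and how the authors counted such reads is not stated. No other pair of the 10 genes shares a run of more than 15 bases.

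Among the adaptors, Traf1 and Traf2 went apart. Traf1 encodes an adaptor that binds TRAF2 and the cIAPs and lacks the RING domain of its relatives, and is at chromosome 2, 34941750 to 34961772. Its RPKM was 35.4 in parental cells, 34.3 in vector cells, 21.5 in the exon 3 line (19.9 to 23.2) and 11.1 in the exon 2 line (9.88 to 12.4). Both knockouts were below both controls, and the exon 3 line was 1.94-fold above the exon 2 line. The log2 change was -1.12 (SE 0.355, limma adjusted p 0.158), and -1.57 without the exon 3 line or -0.67 without the exon 2 line. Traf2, which brings the cIAPs to the receptor, lies on the same chromosome from 25517982 to 25546940. Its RPKM was 32.5 in parental cells, 39.3 in vector cells, 44.3 in the exon 3 line and 43.9 in the exon 2 line. The knockouts agreed within counting error and were above both controls, 1.12-fold above vector cells at the least. Its log2 change was 0.30 (SE 0.299, limma adjusted p 0.603), the size of its SE.

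Fadd, which links the receptors to caspase-8, was the only member whose groups overlapped. It is at chromosome 7, 144577318 to 144582463. Its RPKM was 4.09 in parental cells (79 reads), 12.1 in vector cells (190 reads), 5.72 in the exon 3 line (83 reads) and 2.81 in the exon 2 line (39 reads). Vector cells stood 2.96-fold above parental cells, further than either knockout stood from parental cells. Fadd had a log2 change of -0.69 (SE 0.472, limma adjusted p 0.434), and it was -0.01 without vector cells. An antisense gene overlaps 239 bases of the exons of Fadd. The length behind the RPKM of Fadd is 618 bases, against a coding length of 615 and exons of 3903. Whether the overlap falls in the counted bases was not tested, and whether strand was used in counting is not stated.

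Ripk1, the kinase that sets survival against death at the receptor, is at chromosome 13, 34002363 to 34037147. Its RPKM was 16.0 in parental cells, 19.5 in vector cells, 9.57 in the exon 3 line and 13.5 in the exon 2 line. Both knockouts were lower than both controls, by 2.04-fold for exon 3 against vector cells and by 1.19-fold for exon 2 against parental cells. On the log2 scale the change was -0.59 (SE 0.328, limma adjusted p 0.344). A processed pseudogene on the same strand covers 511 bases of its exons and the gene Serpinb6a covers 241 on the other strand. The length behind the RPKM of Ripk1 is 1971 bases, against a coding length of 1968 and exons of 8344. Whether these overlaps fall in the counted bases, so that reads are shared, was not tested.

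Casp8, the initiator protease that c-FLIP holds back, lies downstream of Cflar on the same strand of chromosome 1, from 58795374 to 58847503. Its RPKM was 31.2 in parental cells, 27.7 in vector cells, 18.8 in the exon 3 line and 19.4 in the exon 2 line. The groups did not overlap (29.5 ± 2.45 and 19.1 ± 0.424, SD, n = 2 each), and the pairs were 1.43-fold to 1.66-fold lower. On the log2 scale the change was -0.60 (SE 0.302, limma adjusted p 0.300).

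Tnfrsf1a, the gene of the receptor TNFR1, was the most abundant of the 10 and is at chromosome 6, 125349362 to 125362484. Its RPKM was 44.4 in parental cells, 47.9 in vector cells, 63.3 in the exon 3 line and 66.8 in the exon 2 line. Both knockouts were above both controls, with intervals that did not touch (45.6 to 50.2 for vector cells and 60.6 to 66.1 for exon 3), and the knockout mean was 141% of the control mean. Its log2 change was 0.49 (SE 0.292, limma adjusted p 0.376).

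Ordered by mean RPKM over the 4 libraries, a level per length of gene, Tnfrsf1a (55.6) was followed by Traf2 (40.0), Traf1 (25.5), Casp8 (24.3), Ripk1 (14.6), Birc2 (11.5), Cflar (6.89), Birc3 (6.49), Fadd (6.18) and Xiap (5.83). Of neighbours in this order, only Tnfrsf1a and Traf2 had ranges over the libraries that did not overlap. The order changed with the group. In both controls Cflar was above Birc3 and Xiap, and in both knockouts it was below Birc3.

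As a group, 7 of the 10 genes had both knockouts below both controls and 2 had both above, against 31.2% and 21.9% of all tested genes. A difference of 2-fold or more in every one of the 4 pairs was seen in 3 members in the lower direction and 0 in the higher, against 3.29% and 0.423% of tested genes. An unadjusted p under 0.05 in limma was reached by 4 members in the lower direction (Cflar, Xiap, Birc3 and Traf1) and 0 in the higher, against 13.8% and 5.32% of all tested genes (1498 lower and 578 higher, a split that was 1212 and 965 with median ratio scaling). The study had itself named these 4 members as affected in the same libraries, so their counts are no independent evidence of a direction. Adjusted over all tested genes, 0 members passed 0.05, also with limma-voom on recovered reads. The median log2 change of the members was -0.65, against -0.08 over all tested genes. It was negative in each pair, at -0.69 and -0.93 for the exon 3 line against parental and vector cells and at -0.54 and -0.81 for the exon 2 line. Between libraries of the same group the median of the members was 0.12 (vector minus parental cells) and -0.06 (exon 3 minus exon 2 line). Over all tested genes the pair medians were, in the same order, -0.05, -0.14, -0.02 and -0.13, and 0.16 and -0.05 within groups. As the list holds the 4 members named from these libraries, its medians are no independent evidence of a difference between the groups either.

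Base composition moved with these changes. Over all tested genes with a coding sequence, the median log2 change went from -0.68 in the eighth of genes with the lowest coding GC content to 0.22 in the eighth with the highest. Xiap has a coding GC content of 42.1%, in the lowest eighth, and Birc2 (45.6%), Casp8 (47.1%), Ripk1 (47.2%) and Cflar (47.7%) are in the next, whose median change was -0.46. The changes of Birc2, Ripk1 and Casp8 lay within their SE of that median, while those of Cflar and Xiap were further below the median of their own eighth, by more than their SE. Birc3 (49.2%) was at -1.15 against a median of -0.23 in its eighth. Traf1 (56.2%) and Fadd (60.2%) were lower in parts of the range where the median gene was higher (0.16 and 0.22).

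**Figure D2:**
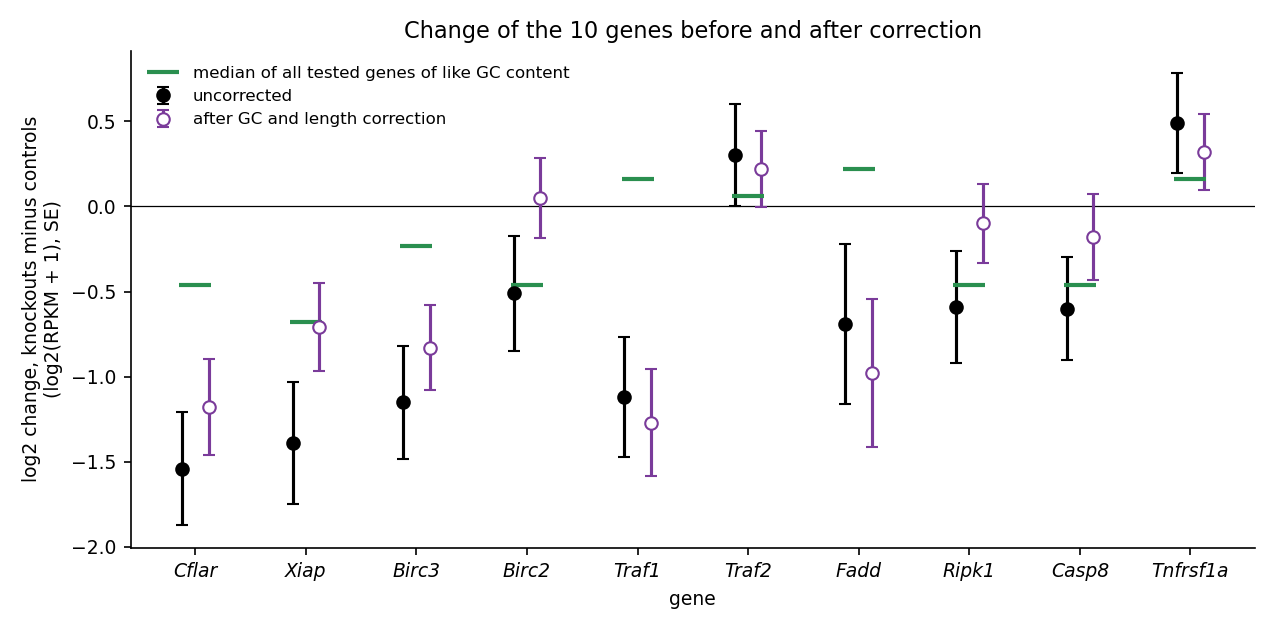
Log2 change of the 10 genes, knockouts (n = 2) minus controls (n = 2), with SE bars from limma: filled points uncorrected, open points after each library was corrected for coding GC content and length, and green bars the median of all tested genes in the same eighth of GC content. After correction Cflar (-1.18), Traf1 (-1.27), Fadd (-0.98), Birc3 (-0.83) and Xiap (-0.71) remain below 0 by more than their SE, and Birc2, Ripk1 and Casp8 are within their SE of 0.

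After each library was corrected for coding GC content and length, the change was -1.18 (SE 0.281) for Cflar, -0.83 (SE 0.250) for Birc3 and -0.71 (SE 0.259) for Xiap, with adjusted p of 0.302, 0.309 and 0.344 in limma. That of Traf1 became larger, at -1.27 (SE 0.316). Birc2 went to 0.05, Ripk1 to -0.10 and Casp8 to -0.18, and Tnfrsf1a (0.32) and Traf2 (0.22) stayed above 0. With this correction 5 members (Cflar, Xiap, Birc3, Traf1 and Fadd) had both knockouts below both controls and 2 (Traf2 and Tnfrsf1a) had both above, against 22.9% and 25.0% of the genes corrected. No member was at least 2-fold lower in all 4 pairs, against 1.57%. The median change of the members was -0.45. The part of base composition in the uncorrected changes was otherwise not tested.

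Ratios between genes of the same library do not depend on how libraries are scaled, and 5 ratios between members are given, chosen after their values had been seen. The ratio of Casp8 to Cflar, the protease over its inhibitor, was 2.82 in parental cells (95% interval from counting error 2.55 to 3.11) and 2.66 in vector cells (2.37 to 2.99). It was 5.78 in the exon 3 line (4.73 to 7.05) and 6.86 in the exon 2 line (5.53 to 8.52). These genes have nearly the same coding GC content and coding length (1500 bases for Casp8 and 1452 for Cflar). The ratio of Traf2 to Traf1 was 0.92 and 1.15 in parental and vector cells and 2.06 and 3.97 in the exon 3 and exon 2 lines. The ratio of Birc2 to Birc3 was 1.37 and 1.55 in the controls and 2.15 and 2.92 in the knockouts, in the same order. The ratio of Tnfrsf1a to Cflar was 4.01 and 4.59 in the controls and 19.5 and 23.7 in the knockouts. Tnfrsf1a has a coding GC content of 57.1% and Cflar of 47.7%, and the part of base composition in this ratio was not tested. The groups did not overlap in these 4 ratios, for which an exact permutation test gives its smallest two-sided p of 0.333. How often that holds for other pairs of genes was not counted. The groups overlapped in the ratio of Fadd to Cflar, which was 0.37 in parental cells, 1.16 in vector cells, 1.76 in the exon 3 line and 0.99 in the exon 2 line. These are ratios of transcripts per length and not of proteins.

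**Figure D3:**
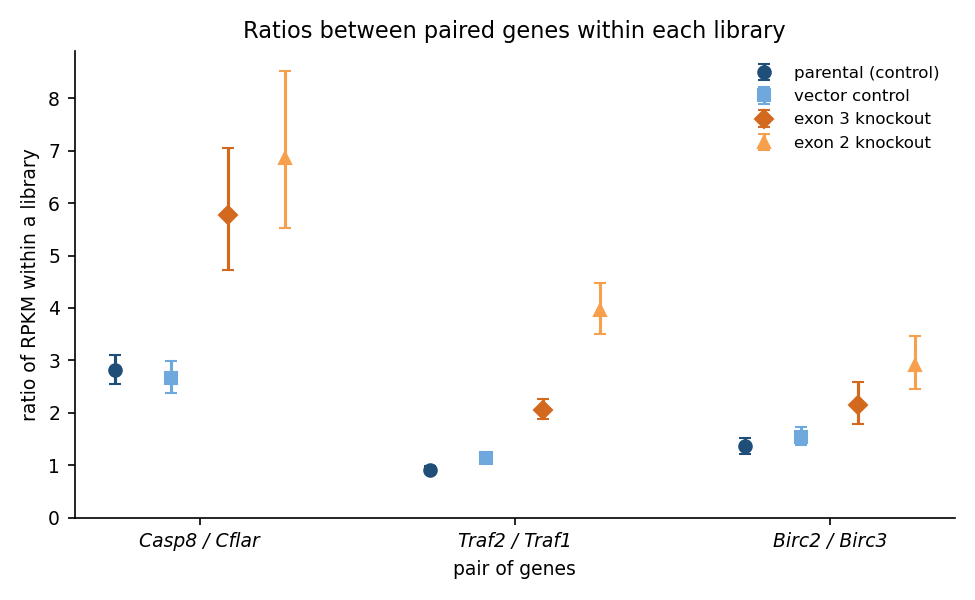
Ratio of RPKM within each library for 3 of the 5 pairs of genes, on a linear axis from 0, with 95% intervals of counting error. Casp8 over Cflar is 2.66 to 2.82 in the controls and 5.78 to 6.86 in the knockouts, and Traf2 over Traf1 is 0.92 to 1.15 in the controls and 2.06 to 3.97 in the knockouts.

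Other genes of the pathway were read from the same fit. Of 63 genes listed, 48 were tested. Of these, 0 passed an adjusted p of 0.05 in limma or in limma-voom, while 8 lower and 2 higher had an unadjusted p under 0.05. In 18 genes both knockouts were below both controls and in 11 both were above, shares of 37.5% and 22.9% that were near those of all tested genes given above. The median log2 change was -0.19, and -0.13 after the GC and length correction. Without parental cells the median change of the 48 was -0.405, against -0.135 over all tested genes. Without vector cells it was 0.001, against -0.037.

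**Figure D4:**
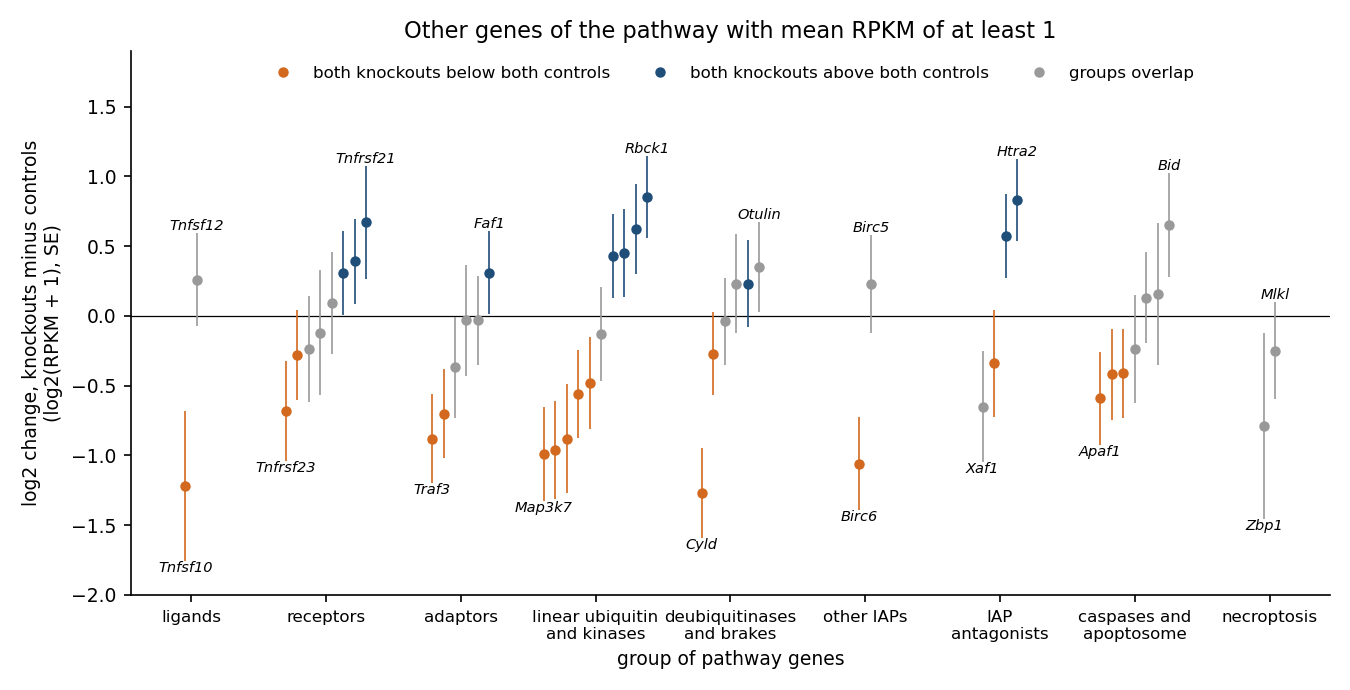
Log2 change (knockouts minus controls, n = 2 each) of the tested genes of the pathway outside the 10 members, 1 left out, in groups by role, with SE bars from limma and colour by whether the libraries of the groups overlap. Of the genes drawn, Cyld (-1.27), Tnfsf10 (-1.22) and Birc6 (-1.06) are the lowest and Rbck1 (0.85) and Htra2 (0.83) the highest.

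Few ligands of the death receptors were expressed. Tnf was at no more than 0.317 RPKM, Fasl at no more than 0.0469 and Lta at no more than 0.0700, and Tnfsf14 and Tnfsf15 were listed at 0 in all libraries. Tnfsf10, the gene of the ligand TRAIL, was at 0.366 in parental cells, 3.60 in vector cells, 0.0973 in the exon 3 line and 0.0508 in the exon 2 line, on 10, 80, 2 and 1 reads, so its control mean rests on vector cells. It met the 2-fold count in all pairs, as did 3.29% of all tested genes. Even so, its knockout intervals (0.0118 to 0.351 and 0.00129 to 0.283) overlap that of parental cells (0.175 to 0.672). It had a log2 change of -1.22 (SE 0.540, limma adjusted p 0.250), which was -2.10 without parental cells and -0.35 without vector cells. Tnfsf12, the gene of TWEAK, was at 15.5 to 26.5 RPKM with a change of 0.26 (SE 0.333), and of -0.02 after the GC and length correction.

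Receptors other than Tnfrsf1a showed no common direction, with 4 of 8 tested genes below 0 and a median change of -0.01. The second TNF receptor gene, Tnfrsf1b, was at 25.6 and 33.0 RPKM in parental and vector cells and at 39.7 and 37.4 in the exon 3 and exon 2 lines (log2 change 0.39, SE 0.305). Tnfrsf21, the gene of death receptor 6, had a change of 0.67 (SE 0.407) that rests on vector cells. It was at 2.22 RPKM there and at 5.84 to 6.78 in the other libraries, and the change was 0.13 without vector cells and 1.22 without parental cells. Tnfrsf10b, which encodes the mouse TRAIL receptor, had -0.28 (SE 0.321) and Tnfrsf23, a decoy receptor gene, -0.68 (SE 0.359).

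Among 6 tested adaptors, Traf3 and Traf5 had both knockouts below both controls, as did 31.2% of all tested genes. Traf3, which helps the cIAPs degrade the kinase of the alternative NF-κB pathway, was at 12.9 and 13.5 RPKM in parental and vector cells and at 6.78 and 6.66 in the exon 3 and exon 2 lines. Its log2 change was -0.88 (SE 0.318, limma adjusted p 0.188), and -0.86 after the GC and length correction. Traf5 had a change of -0.70 (SE 0.321). Map3k14, that kinase, had -0.03 (SE 0.319) and Faf1, which binds FAS, had 0.31 (SE 0.299), which the GC and length correction moved to 0.94 (SE 0.226).

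The genes that write ubiquitin and phosphate marks at the receptor went in both directions. Rbck1, Sharpin and Rnf31, the 3 subunits of the linear ubiquitin ligase, had both knockouts above both controls, as did 21.9% of all tested genes, and Rnf31 no longer did after the GC and length correction. Rbck1 was at 64.2 and 78.8 RPKM in parental and vector cells and at 135 and 123 in the exon 3 and exon 2 lines (log2 change 0.85, SE 0.295, limma adjusted p 0.179). Sharpin had a change of 0.62 (SE 0.322) and Rnf31 of 0.45 (SE 0.316). The kinase genes Map3k7 and Chuk had both knockouts below both controls, as did 31.2% of all tested genes. Their changes were -0.99 (SE 0.334) and -0.96 (SE 0.350), with adjusted p of 0.172 and 0.190 in limma. After the GC and length correction these values were 0.64 for Rbck1, 0.41 for Sharpin, 0.41 for Rnf31, -0.62 for Map3k7 and -0.21 for Chuk.

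Cyld, a deubiquitinase that removes chains from RIPK1 and its partners, was the other pathway gene at least 2-fold lower in all pairs. With Tnfsf10 that is 2 of 48, against 3.29% of all tested genes, and 0 of 48 after the GC and length correction. The RPKM of Cyld was 19.2 in parental cells, 23.5 in vector cells, 7.14 in the exon 3 line and 9.50 in the exon 2 line. Its log2 change was -1.27 (SE 0.325, limma adjusted p 0.117) and its coding GC content 44.2%, in the eighth of genes whose median change was -0.68. The change was -0.51 after the GC and length correction, and the adjusted p was 0.0406 with a robust prior and 0.0313 without parental cells. Otulin (0.35, SE 0.325), Spata2 (0.23, SE 0.312) and Otud7b (-0.27, SE 0.300), listed with Cyld among deubiquitinases and brakes, had changes no larger than about their SE.

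Of the other IAP genes, Birc6, which encodes a giant ubiquitin ligase, was at 14.5 and 13.6 RPKM in parental and vector cells and 5.11 and 7.54 in the exon 3 and exon 2 lines. Its log2 change was -1.06 (SE 0.334, limma adjusted p 0.158) and went to -0.09 after the GC and length correction. Birc5, the gene of survivin and a marker of dividing cells, had a change of 0.23 (SE 0.353) and of -0.26 without parental cells, which had 78.7 RPKM against 129 to 157 in the other libraries. Birc7 was listed at 0 in all libraries and the 4 Naip genes were below 1 RPKM.

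The antagonists of IAPs are mitochondrial proteins released in apoptosis and the nuclear Xaf1 product. Htra2 was at 64.9 and 52.4 RPKM in parental and vector cells and at 101 and 109 in the exon 3 and exon 2 lines (log2 change 0.83, SE 0.296, limma adjusted p 0.184). Diablo, the gene of Smac, was at 36.3 and 41.6 against 52.9 and 63.8 (0.57, SE 0.300). Both had both knockouts above both controls, as did 21.9% of all tested genes. Their changes were 0.65 and 0.66 after the GC and length correction. Xaf1 was at 122 RPKM in vector cells and 46.0 to 53.7 in the other libraries, with a change of -0.65 (SE 0.395). The change was -1.28 without parental cells and -0.01 without vector cells. Sept4 had a change of -0.34 (SE 0.384).

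Of the genes downstream of caspase-8, Apaf1, the scaffold of the apoptosome, had -0.59 (SE 0.334, and 0.10 after the GC and length correction), Bid, which carries the caspase-8 signal to mitochondria, 0.65 (SE 0.373), and Nol3, the gene of a further caspase-8 inhibitor, 0.16 (SE 0.509). Bid was at 31.1 and 41.6 RPKM in parental and vector cells and at 39.8 and 81.9 in the exon 3 and exon 2 lines, so its change rests on the exon 2 line, without which it was 0.14, against 1.16 without the exon 3 line. Cycs, the gene of cytochrome c, was listed at 0.140 to 0.670 RPKM although respiring cells use it, and is not interpreted here.

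Necroptosis, the death that RIPK1 can start when caspase-8 is blocked, needs RIPK3 and MLKL. Ripk3 was at 0.0539 RPKM in vector cells and listed at 0 in the other libraries. Mlkl was at 35.5 to 67.6 RPKM (log2 change -0.25, SE 0.349, and 0.17 after the GC and length correction). Zbp1, a nucleic acid sensor gene, was at 4.83 RPKM in parental cells, 33.2 in vector cells, 4.51 in the exon 3 line and 11.1 in the exon 2 line. Its change was -0.79 (SE 0.668), and -2.07 without parental cells or 0.49 without vector cells. For Xaf1, Mlkl, Zbp1 and Tnfsf10 alike, vector cells were the highest, a pattern picked out after the values were seen.

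Genes whose profile was most like that of Cflar were sought by the Euclidean distance of log2(RPKM + 1), each gene centred on its mean, over the 4 libraries. The nearest were Pank3 (distance 0.129), Zfhx4 (0.147), Ift80 (0.155), Slc38a2 (0.163) and Mef2c (0.170). Among the members, Birc3 was the nearest (0.456, rank 109 of the tested genes), followed by Xiap (0.582, rank 263), Traf1 (0.677, rank 441) and Casp8 (0.954, rank 1407). Tnfrsf1a was the farthest (2.04, rank 8899). With 4 libraries a small distance describes these values and nothing more.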

How the data were processed

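RNA-seq libraries of 4 cell lines were compared, 2 controls and 2 knockouts, grouped from the sample titles. The authors deposited RPKM values, 1 column per library, neither logged nor scaled between libraries. The submitters' processing notes name CASAVA 1.8, GSNAP and GRCm38 without a role for each, and the gene model and counting rule are not given in the sources used here. The table holds 21090 genes, and 0 columns were left unmatched to a sample.

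Whole reads were recovered from the steps of RPKM (tolerance 0.001 reads) for 100.0% of the 15405 genes above 0. Their absolute scale rests on coding lengths in GENCODE M21 (GRCm38), to which 99.4% of symbols were matched. The length behind RPKM equalled an annotated coding length in 59.0% of tested genes.

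Genes with mean RPKM of at least 1 were tested as log2(RPKM + 1), so that changes of low genes are understated. limma 3.58.1 (R 4.3.3) with an intensity trend compared the groups without covariates, with a threshold of 0.05 on Benjamini-Hochberg adjusted p over all tested genes. The fit was tested on simulated data. For the correction, the deviation of each library from the gene mean was fitted by loess on coding GC content and log2 coding length and subtracted. Tables and figures used Python 3.11.15, numpy 2.4.6, pandas 2.3.3, scipy 1.17.1 and matplotlib 3.10.9.

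Named genes were the 10 members, S100a4, pathway genes at least 2-fold apart in all 4 pairs, the 2 highest and 2 lowest changes of each pathway list, and the 5 genes nearest to Cflar in profile. Rnf31 and the untested genes were added after their values were seen. Results of some listed genes are not reported here by name and enter only counts, medians and sums. Members and lists were chosen with earlier results of these data known. Alternatives were a pseudocount of 0.1, median ratio scaling, quantile normalization, a filter raised to mean RPKM of 5 or dropped, limma with a robust prior or no trend, limma-voom on recovered reads, the GC and length correction, thresholds of 1.5-fold and 3-fold, and leaving out each library in turn.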

Additional observations from a re-analysis of the deposited data

Results flagged for a closer look

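Nol3, the gene of a caspase-8 inhibitor, lay on opposite sides of the controls in the knockouts. Its RPKM was 2.03 in parental cells, 1.25 in vector cells, 4.11 in the exon 3 line and 0.671 in the exon 2 line. These values rest on 42, 21, 64 and 10 reads. The exon 3 line was above both controls and the exon 2 line below both. The interval of the exon 2 line (0.322 to 1.23) overlaps that of vector cells (0.772 to 1.91). That of the exon 3 line (3.17 to 5.25) stays clear of parental cells (1.46 to 2.74). The difference of exon 3 minus exon 2 was 1.61 on the log2(RPKM + 1) scale. It was not tested, as each knockout has 1 library.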

How the results depend on the processing

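No paired analysis was possible because each library is a different line and no label matches a knockout with a control. Of 130 values for the 10 members under the alternatives, 129 kept their direction and 5 had an adjusted p under 0.05 in limma. The exception in direction was Birc2, at 0.05 after the GC and length correction. The cause was not tested for any change given here. Genes called over all tested were 2, against 1 with a pseudocount of 0.1 or quantile normalization, 0 with median ratio scaling, no filter, the GC and length correction or limma-voom (2177, 2132, 1436 and 2047 at an unadjusted p under 0.05 in that order), 32 with a filter at mean RPKM of 5, and 285 with a robust prior, and 3 to 788 when a library was left out (788 without parental cells and 451 without vector cells). Members called were 0, but 2 with a robust prior and 0 to 2 without a library. Other pathway genes called were 0, but 2 with a robust prior and 0 to 5 without a library. Members at least 2-fold lower in all pairs were 3, but 1 with quantile normalization, 0 after the GC and length correction and 1 at 3-fold. Without a library they were 3 to 4, a count that cannot fall because fewer pairs are left. Over all tested genes it rose from 358 to between 651 and 1287. Members with both knockouts below both controls were 7, but 6 with quantile normalization and 5 after the GC and length correction. Without a library they were 7 to 8, a count that likewise cannot fall. Over all tested genes it rose from 3395 to between 4431 and 5140. The median change of the members, -0.65, was -0.47 with quantile normalization and -0.45 after the GC and length correction, and -0.91 to -0.57 without a library. After the GC and length correction Tnfsf12 was at -0.02, Apaf1 at 0.10, Nol3 at -0.14 and Mlkl at 0.17. Map3k14 was at 0.06 with median ratio scaling and at 0.18 with quantile normalization, which moved the median of all tested genes from -0.078 to 0.041. When each library was left out in turn, Map3k14 ranged from -0.18 to 0.13, Birc5 from -0.26 to 0.73, Nol3 from -0.64 to 0.97, Zbp1 from -2.07 to 0.49 and Mlkl from -0.70 to 0.21. A group left with 1 library was assumed to vary like the others. Depth limits Cflar, Xiap and Fadd most, which had 39 to 125 reads in each knockout.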
